A study of Mus musculus with 6 samples.

Results

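The antioxidant, glutathione and thioredoxin genes described here are 45 genes of hydrogen peroxide removal, thiol reduction, glutathione chemistry and NADPH supply, chosen by name from the rows of the deposited comparison of Tfh cells without and with Bob1. All 45 were found, and the 42 with a mean of at least 1 FPKM (sequenced fragments scaled to the length of the transcript and to the depth of the library) over the 6 libraries were tested among 10259 genes, out of 25671 genes with a value in every library. Tfh cells, the CD4+ T cells that help B cells in follicles, were sorted from spleen on day 7 after an intraperitoneal dose of 100 µg of NP-CGG, a hapten on a carrier protein, given in CFA, an oil adjuvant. The gate kept CD3+CD4+ cells that carried CXCR5 and PD-1 and lacked B220 and GFP. The 3 WT libraries came from FoxP3GFP/DTRCD4+/+Bob1fl/fl mice and the 3 Bob1KO libraries from FoxP3GFP/DTRCD4Cre/+Bob1fl/fl mice. Both groups therefore carry the floxed *Pou2af1* allele, which spans the whole gene for Bob1, and the FoxP3GFP/DTR allele that marks regulatory T cells with GFP. Only the Bob1KO mice carry Cre, driven by the *Cd4* promoter, which acts in T cells from the thymus onwards and not only in Tfh cells. The floxed mice were on a C57BL/6 background, and the mice were sex-matched littermates of 6 to 12 weeks of age, with 10 to 12 mice in an experiment. Each library was made from 0.7 ng of RNA.

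Superoxide dismutases turn superoxide into hydrogen peroxide, and catalase, glutathione peroxidases and peroxiredoxins remove the peroxide. Peroxiredoxins are recharged by thioredoxin and glutathione peroxidases by glutathione, and both systems draw their electrons from NADPH, which the pentose phosphate pathway supplies. Nrf2, the product of *Nfe2l2*, is held back by Keap1 and drives many of these genes through antioxidant response elements, while Bob1 is a coactivator that Oct-1 and Oct-2 bring to octamer motifs.

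The antioxidant response element was searched for in the promoters of the members as TGACNNNGC, and the octamer as ATGCAAAT, each on both strands, in windows of 300 bases from 250 bases before to 50 bases after a start site (RefSeq, GRCm38.p6). Promoters were given for 42 of the 45 members, all but *Prdx6*, *Gsr* and *Gclc*. The element was found in 9 of the 42, or 21.4%, against 13.99% of 27025 genes, and the octamer in 1 of the 42, or 2.38%, against 1.97%. The element of *Srxn1*, which encodes the enzyme that repairs overoxidized peroxiredoxins, and that of *Pgd*, an enzyme of the pentose phosphate pathway, lie after the start site. The other 7 stretches with the element and that of *Sesn3*, the only member with the octamer, follow on the strand of the gene, with the matched letters in capitals, to show where these letters stand in the members.
Txnrd1, chr10:82859099-82859137, plus strand: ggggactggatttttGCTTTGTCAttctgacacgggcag
Prdx1, chr4:116685451-116685489, plus strand: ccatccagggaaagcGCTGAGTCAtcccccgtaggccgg
Sod1, chr16:90220691-90220729, plus strand: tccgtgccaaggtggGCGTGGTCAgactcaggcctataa
Gclm, chr3:122245408-122245446, plus strand: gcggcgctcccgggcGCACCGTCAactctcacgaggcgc
G6pdx, chrX:74428914-74428952, minus strand: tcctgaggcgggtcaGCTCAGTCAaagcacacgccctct
Nfe2l2, chr2:75704880-75704913, minus strand: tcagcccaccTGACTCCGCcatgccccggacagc
Selk, chr14:29968321-29968359, plus strand: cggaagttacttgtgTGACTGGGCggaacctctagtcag
Sesn3, octamer, chr9:14276051-14276079, plus strand: ctgataATTTGCATacaccacacctccat

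The element stands 92 bases before a start site in *Txnrd1*, 133 in *Prdx1*, 56 in *Sod1*, 134 in *Gclm*, 57 in *G6pdx*, 240 in *Nfe2l2* and 44 in *Selk*, and the octamer of *Sesn3* stands 244 bases before. These are matches of letters and were not tested as binding sites. The 250 bases before a start site are printed whole for *Gstm1* and *Txnrd1*, the members with the lowest unadjusted P among those higher and those lower in Bob1KO Tfh cells. The *Gstm1* stretch holds neither motif, and the capitals in the *Txnrd1* stretch, which lies before 1 of its 3 start sites, mark the element.
Gstm1, chr3:108017974-108018223, minus strand: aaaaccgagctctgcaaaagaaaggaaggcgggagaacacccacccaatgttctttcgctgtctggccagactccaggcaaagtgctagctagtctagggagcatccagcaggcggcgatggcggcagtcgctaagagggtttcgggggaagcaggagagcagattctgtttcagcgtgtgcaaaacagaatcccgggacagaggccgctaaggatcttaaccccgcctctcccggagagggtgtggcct
Txnrd1, chr10:82858956-82859205, plus strand: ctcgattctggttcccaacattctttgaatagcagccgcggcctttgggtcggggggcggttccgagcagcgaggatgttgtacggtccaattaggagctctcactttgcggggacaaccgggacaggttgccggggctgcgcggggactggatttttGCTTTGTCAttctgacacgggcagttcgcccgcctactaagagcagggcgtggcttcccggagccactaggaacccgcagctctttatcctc

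*Pou2af1* itself stood at 46.1, 32.5 and 34.4 FPKM in the WT libraries and 1.16, 0.237 and 0.317 FPKM in the Bob1KO libraries, a log2 difference of -4.65 (SE 0.257) with an adjusted P of 0.00379 by limma. The summed FPKM of 12 Tfh cell markers ran from 4046 to 5358 in WT and from 4138 to 5479 in Bob1KO libraries, and *Foxp3* was listed at 0 in all 6. By the authors' group FPKM, in a row shared with *4930524L23Rik*, *Foxp3* stood at 0.225 in WT and 0.280 in Bob1KO, so the 0 does not show that its RNA is absent. Summed markers of neutrophils and monocytes, cells outside the gate, ran from 595 to 1135 FPKM in WT and stood at 5201, 98.6 and 1672 FPKM in the Bob1KO libraries, so that Bob1KO replicate 1 is the highest of all and replicate 2 the lowest. *S100a8*, the most abundant of these markers, was at 2027, 35.5 and 567 FPKM in Bob1KO and 294, 254 and 447 FPKM in WT libraries. Summed markers of NK and CD8+ T cells lay at 264 to 384 FPKM in WT and 124 to 235 FPKM in Bob1KO libraries. The gap between these sums largely rests on *Ccl5*, at 275, 159 and 99.9 FPKM in WT and 59.6, 85.6 and 22.9 FPKM in Bob1KO libraries. *Nkg7*, the next most abundant, was at 83.6, 107 and 125 FPKM in WT and 96.2, 119 and 68.3 FPKM in Bob1KO libraries. Of the 8 tested markers of this list, 3 had positive and 5 negative differences. At an unadjusted P below 0.05 by limma, *Ccl5* and *Prf1* were lower in Bob1KO libraries, with no overlap, and none of the 8 passed the adjusted P. *Prf1* stood at 2.78, 2.565 and 3.06 FPKM in WT and 0.907, 1.84 and 1.16 FPKM in Bob1KO libraries. Summed markers of B cells lay at 45.1 to 73.7 FPKM in WT and 48.7 to 118 FPKM in Bob1KO libraries. For plasma cells the sums lay at 80.4 to 103 and 99.0 to 115 FPKM, nearly all from *Xbp1*, at 73.5 to 96.7 and 91.3 to 107 FPKM. *Sdc1* and *Tnfrsf17* had means under 1 FPKM, and *Jchain* and *Mzb1* were not matched. The sums lay at 10.16 to 21.9 and 15.3 to 27.4 FPKM for erythroid cells. They lay at 5.32 to 9.59 and 3.36 to 17.7 FPKM for macrophages and dendritic cells, with *Clec9a* at 0. For regulatory T cells, several of whose markers Tfh cells also express, they lay at 626 to 787 and 552 to 660 FPKM. In such bulk RNA, fewer cells of a type and less RNA per cell cannot be told apart. The fragments implied by the deposited intervals came to 10251777 to 13696889 per library.

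The differences of the antioxidant genes between Tfh cells with and without Bob1 lay on both sides of 0. Of the 42 tested members, *Gstm1* was 3.29-fold higher in Bob1KO Tfh cells, and the standard error of a log2 difference was 0.15 at the median over the members. None of the 42 tested members passed an adjusted P of 0.05 by limma, and the lowest adjusted P was 0.560, for *Gstm1*. Over all genes 0.0195% passed, which is 2 genes, *Pou2af1* and *Pcsk1* (named after its values were seen). At an unadjusted P below 0.05, *Gstm1* and *Nfe2l1* were higher in Bob1KO Tfh cells, 4.76% of the members against 3.15% of all genes. *Txnrd1* alone was lower at that threshold, 2.38% of the members against 2.12% of all genes. In 3 members, *Gstm1*, *Txnip* and *Nfe2l1*, every Bob1KO library lay above every WT library, 7.14% against 5.83% of all genes, and in 2, *Txnrd1* and *Selk*, every Bob1KO library lay below, 4.76% against 4.86%. All of these shares lie near those of all genes.

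Of the 42 members, 20 had a positive and 22 a negative log2 difference, and the median was -0.0033, beside -0.0031 over all genes, where 5062 were positive and 5197 negative. By the group FPKM that the authors made with a common assembly, the log2 ratio was positive in 16 and negative in 26 of the members, with a median of -0.03. The 95% interval included 0 in 39 members, and in 18 it lay wholly within 0.5 on either side of 0. In 3 members, *Gstm1*, *Sod2* and *Glrx*, the difference lay beyond 0.5, of which *Sod2* and *Glrx* had 1 library far from the rest.

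**Figure D1:**
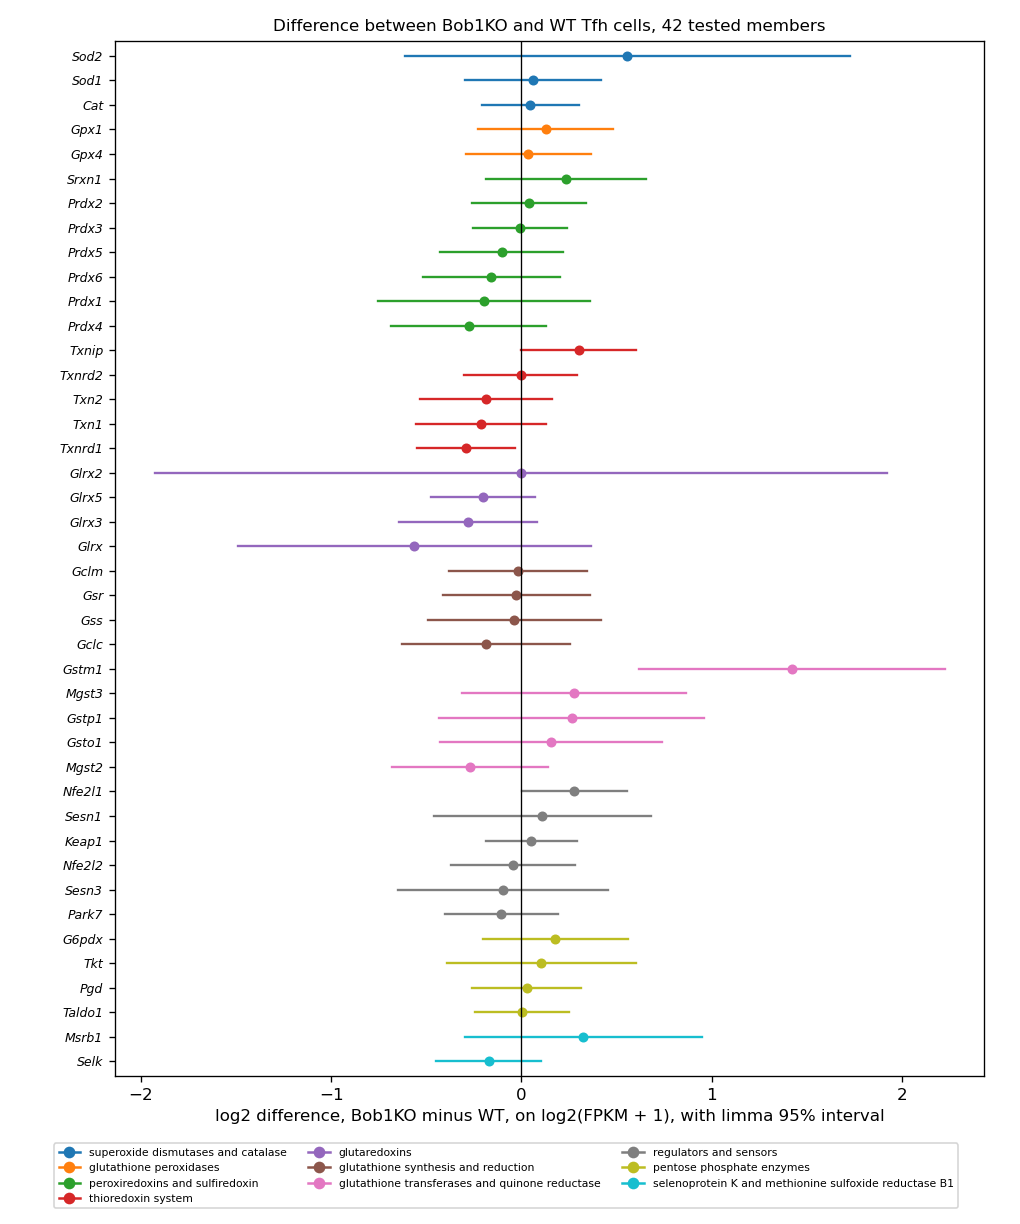
Log2 difference between Bob1KO and WT Tfh cells on log2(FPKM + 1) for the 42 tested members, with dots for the estimate and bars for the 95% interval of limma, coloured by role. *Gstm1*, *Nfe2l1* and *Txnrd1* are the 3 members whose bars do not reach 0, and *Glrx2* and *Sod2* have the widest bars.

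Levels of the members spanned 358-fold, from 1.199 FPKM for *Mgst3* to 429 FPKM for *Gpx1*, on the FPKM scale, which is per transcript length. With *Gpx1* and *Prdx1* at the top, 11 members had a mean of at least 100 FPKM, 25 lay between 10 and 100 FPKM and 6 lay under 10 FPKM. Summed over the tested members, the FPKM came to 3145, 3218 and 3641 in WT and 3751, 3131 and 2982 in Bob1KO libraries, or 0.607% to 0.697% of all FPKM of a library. The Bob1KO libraries thus hold both the highest and the lowest sum.

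**Figure D2:**
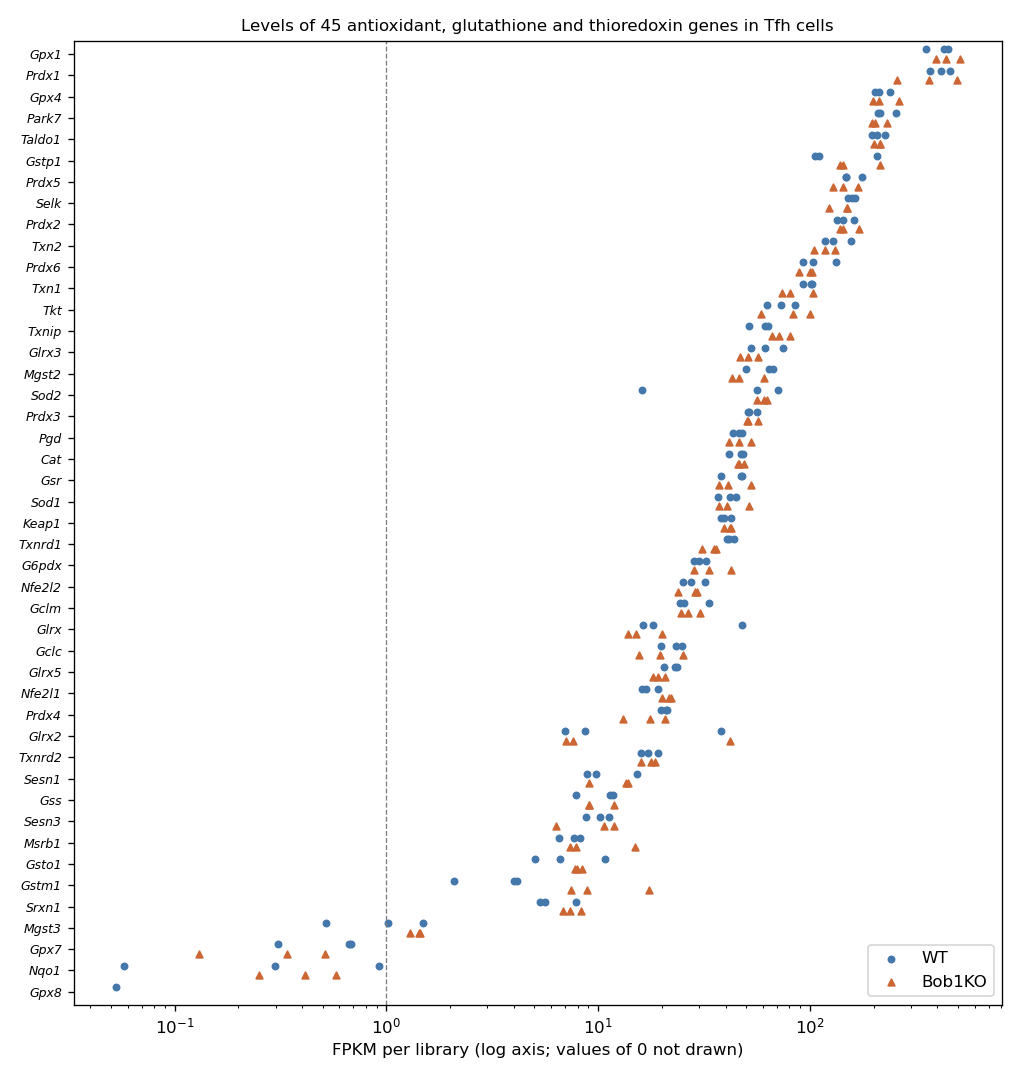
FPKM of the 45 members in each library on a log axis, ordered by mean, with circles for WT and triangles for Bob1KO libraries and a dashed line at 1 FPKM. The values of WT and Bob1KO libraries overlap in most members, those of *Gstm1* stand apart, and *Gpx7*, *Nqo1* and *Gpx8* fall under the line.

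Among the glutathione transferases, which join glutathione to reactive compounds, *Gstm1* (chromosome 3, 108012255 to 108017973 on GRCm38) differed most of all members. It stood at 4.03, 2.10 and 4.16 FPKM in WT libraries and at 17.4, 8.88 and 7.49 FPKM in Bob1KO libraries, so that the groups did not overlap and the highest WT library lay well under the lowest Bob1KO library. The means were 3.43 ± 1.153 and 11.3 ± 5.37 FPKM (SD, n = 3 each), a 3.29-fold ratio. Its log2 difference was 1.42 (SE 0.340, 95% interval 0.619 to 2.22), with an unadjusted P of 0.00408 and an adjusted P of 0.560 by limma. The exact two-sided permutation P was 0.1, the smallest that 3 libraries against 3 allow.

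Behind these values stand few fragments, about 100, 53 and 119 in the WT and 447, 290 and 169 in the Bob1KO libraries, and the counts follow the FPKM. Bob1KO replicate 1, the highest in *Gstm1*, is also the highest in neutrophil and monocyte markers, and replicate 2, the lowest of all 6 libraries in those markers, stood at 8.88 FPKM of *Gstm1*. The part of those cells in the level of *Gstm1* was not tested. Without replicate 1 the log2 difference was 1.09, at an unadjusted P of 0.00782 and an adjusted P of 0.814 by limma, and over 18 alternatives the adjusted P ran from 0.413 to 0.876. Reads of *Gstm1* can be shared with near-identical genes of the same family. *Gstm4*, another gene of that family, stood at 6.52, 5.995 and 5.74 FPKM in WT and 9.42, 6.02 and 7.90 FPKM in Bob1KO libraries, higher in Bob1KO by 0.29 on the log2 scale with an adjusted P of 0.942 by limma.

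*Gstp1*, the most abundant transferase, was at 111, 106 and 209 FPKM in WT and 215, 143 and 139 FPKM in Bob1KO libraries, a log2 difference of 0.26 (SE 0.295, adjusted P = 0.9495 by limma). The high values of WT replicate 3 and Bob1KO replicate 1 come from rows that were assembled across its neighbours as well, while the other 4 libraries have a row of the gene alone, so its level is uncertain. *Mgst2*, a membrane-bound transferase, stood at 64.1, 50.1 and 66.9 FPKM in WT and 61.0, 46.5 and 42.8 FPKM in Bob1KO libraries, a log2 difference of -0.27 (SE 0.174, adjusted P = 0.942 by limma), with overlapping groups. *Gsto1*, which reduces disulfides and dehydroascorbate, had means of 7.45 and 8.06 FPKM, and *Mgst3*, the member just above the threshold of 1 FPKM, of 1.01 and 1.39 FPKM. The quinone reductase *Nqo1*, a classic target of Nrf2, did not reach that threshold and lay between 0.0577 and 0.920 FPKM in every library.

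In the thioredoxin system, 4 of 5 members had a negative log2 difference and 1 a positive one, with a median of -0.18. *Txnrd1* (chromosome 10, 82833951 to 82897712), the cytosolic reductase that recharges thioredoxin with NADPH and that carries the element shown above, stood at 43.6, 41.3 and 40.6 FPKM in WT and 36.0, 30.9 and 35.4 FPKM in Bob1KO libraries. All Bob1KO libraries lay under all WT libraries, with 36.0 FPKM as the highest of Bob1KO and 40.6 FPKM as the lowest of WT. The log2 difference was -0.29 (SE 0.108, 95% interval -0.55 to -0.03), with an unadjusted P of 0.0314 and an adjusted P of 0.926 by limma and an exact permutation P of 0.1. The fragments implied for this gene, 1614, 1726 and 1762 in WT and 1211, 1642 and 1608 in Bob1KO libraries, overlapped between the groups.

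*Txnip* (chromosome 3, 96557957 to 96561883), which binds thioredoxin and blocks it and also lowers glucose uptake, had a difference of the opposite sign. It was at 51.5, 63.7 and 61.3 FPKM in WT and 66.3, 71.4 and 80.3 FPKM in Bob1KO libraries, with no overlap. The log2 difference was 0.30 (SE 0.128, 95% interval -0.0005 to 0.60), with an unadjusted P of 0.0503, just over the threshold, and an adjusted P of 0.932 by limma. The fragments implied for *Txnip*, 1788, 2056 and 2101 in WT and 2082, 2462 and 2169 in Bob1KO libraries, overlapped between the groups.

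Thioredoxins themselves showed overlapping groups. *Txn1*, the cytosolic thioredoxin, was at 92.6, 103 and 101 FPKM in WT and 104, 81.0 and 73.7 FPKM in Bob1KO libraries, a log2 difference of -0.21 (SE 0.144, adjusted P = 0.942 by limma). *Txn2*, the mitochondrial one, was at 129, 118 and 157 FPKM in WT and 132, 104 and 118 FPKM in Bob1KO libraries, a log2 difference of -0.18 (SE 0.147, adjusted P = 0.942 by limma). In *Txn1* Bob1KO replicate 1 is the highest of the 6 libraries and the other 2 Bob1KO libraries lie under all WT libraries, and in *Txn2* only Bob1KO replicate 2 does so. The mitochondrial reductase *Txnrd2* had means of 17.5 and 17.4 FPKM, a log2 difference of -0.0033.

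**Figure D3:**
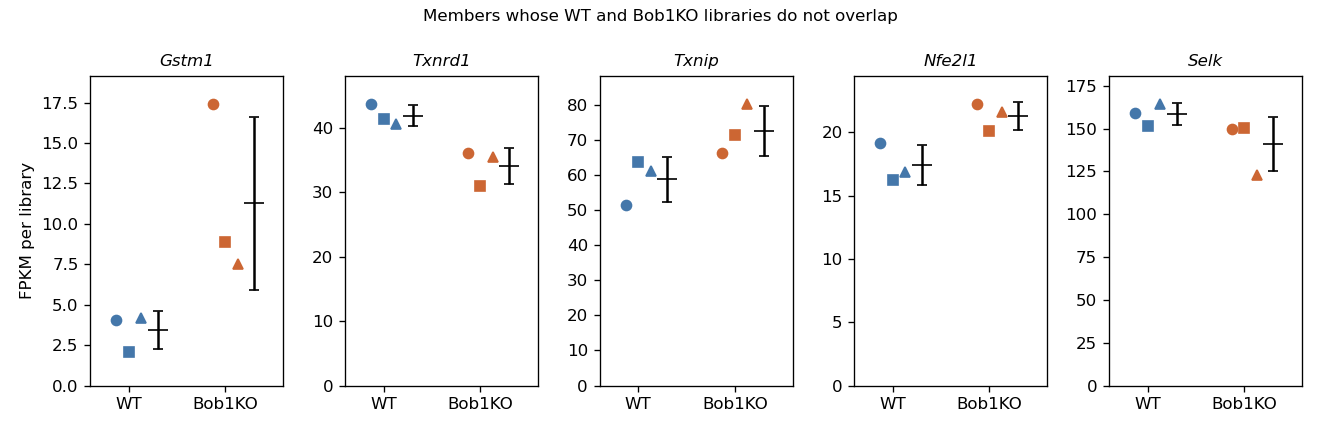
FPKM of the 5 members whose groups do not overlap, with circles, squares and triangles for replicates 1, 2 and 3 and bars for the mean and SD of 3 libraries. *Gstm1* has the largest ratio and the widest spread among Bob1KO libraries, and in *Selk* Bob1KO replicates 1 and 2 lie just under the lowest WT library.

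Regulators were split, with 3 positive and 3 negative differences and a median of 0.0038. *Nfe2l1* (chromosome 11, 96817414 to 96829968), a relative of *Nfe2l2* that drives proteasome and stress genes, stood at 19.2, 16.2 and 16.9 FPKM in WT and 22.2, 20.1 and 21.6 FPKM in Bob1KO libraries. The groups did not overlap, and the log2 difference was 0.28 (SE 0.118, 95% interval 0.0011 to 0.56), with an unadjusted P of 0.0493 and an adjusted P of 0.932 by limma. *Nfe2l2* had means of 28.2 ± 3.44 and 27.3 ± 3.001 FPKM, a log2 difference of -0.04. The fragments implied for *Nfe2l2*, 1384, 1325 and 1866 in WT and 1515, 943 and 1032 in Bob1KO libraries, spread more widely than its FPKM.

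*Keap1*, which directs Nrf2 to degradation, was at 38.0, 39.2 and 42.2 FPKM in WT and 39.3, 41.9 and 42.6 FPKM in Bob1KO libraries, a log2 difference of 0.05 (SE 0.101, adjusted P = 0.971 by limma). Its interval, -0.19 to 0.29, is among the narrowest of all members. The fragments implied for *Keap1*, 1542, 1429 and 1876 in WT and 1164, 2092 and 1590 in Bob1KO libraries, spread more widely than its FPKM, so the narrow interval should be read with care. *Park7*, a redox-sensing protein, was at 214, 211 and 257 FPKM in WT and 232, 203 and 198 FPKM in Bob1KO libraries, a log2 difference of -0.11 (SE 0.126, adjusted P = 0.953 by limma). The sestrins, stress proteins that restrain mTORC1, had means of 11.3 and 12.2 FPKM for *Sesn1* and 10.1 and 9.61 FPKM for *Sesn3*, the member with the octamer.

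Peroxiredoxins, the thiol peroxidases, had 5 negative and, with sulfiredoxin, 2 positive differences, and none passed either threshold. *Prdx1*, the most abundant of them, stood at 371, 415 and 458 FPKM in WT and 494, 367 and 257 FPKM in Bob1KO libraries, a log2 difference of -0.20 (SE 0.236, adjusted P = 0.953 by limma). The Bob1KO libraries hold both its highest and its lowest value. *Prdx5* was at 148, 148 and 176 FPKM in WT and 168, 129 and 144 FPKM in Bob1KO libraries, a log2 difference of -0.10 (SE 0.137, adjusted P = 0.954 by limma). *Prdx4*, the form of the endoplasmic reticulum, had the most negative value, -0.28 (SE 0.172), with means of 20.7 ± 0.708 and 17.2 ± 3.86 FPKM. For *Prdx2*, *Prdx3* and *Prdx6* the log2 differences were 0.04, -0.0079 and -0.16. The fragments implied for *Prdx2*, 2299, 2195 and 2987 in WT and 2839, 1608 and 1228 in Bob1KO libraries, spread more widely than its FPKM. *Srxn1* had means of 6.29 ± 1.39 and 7.49 ± 0.762 FPKM, a log2 difference of 0.23.

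Glutathione peroxidases had positive differences in both tested genes, with overlapping groups. *Gpx1*, the cytosolic enzyme and the most abundant member, was at 354, 448 and 429 FPKM in WT and 511, 441 and 393 FPKM in Bob1KO libraries, a log2 difference of 0.13 (SE 0.149, adjusted P = 0.953 by limma). *Gpx4*, which reduces lipid peroxides and protects from ferroptosis, was at 204, 212 and 239 FPKM in WT and 263, 213 and 199 FPKM in Bob1KO libraries, a log2 difference of 0.04 (SE 0.139, adjusted P = 0.987 by limma). In both genes Bob1KO replicate 1 is the highest of the 6 libraries. The remaining peroxidases were too low to test, with *Gpx7* at 0.130 to 0.678 FPKM and *Gpx8* at 0.0528 FPKM in WT replicate 1 and listed at 0 in the other 5 libraries.

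Superoxide dismutases and catalase had positive differences in all 3 genes, with none past either threshold. *Sod2*, the mitochondrial dismutase, was at 70.9, 16.1 and 56.5 FPKM in WT and 60.9, 56.0 and 63.0 FPKM in Bob1KO libraries, a log2 difference of 0.56 (SE 0.494, adjusted P = 0.942 by limma). WT replicate 2 stands far under the other 5 libraries, although the fragments implied for it there, 1272, are the most of any library, and without that replicate the difference was -0.08. *Cat*, catalase, was at 41.3, 48.2 and 47.5 FPKM in WT and 46.2, 49.2 and 46.0 FPKM in Bob1KO libraries, a log2 difference of 0.05 (SE 0.107, adjusted P = 0.973 by limma). The cytosolic *Sod1* had means of 41.2 ± 4.14 and 43.3 ± 7.51 FPKM, a log2 difference of 0.06.

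Glutaredoxins, which use glutathione to reduce protein disulfides or to carry iron-sulfur clusters, had negative differences in all 4 genes. *Glrx3* stood at 61.4, 53.0 and 74.9 FPKM in WT and 50.9, 57.0 and 46.6 FPKM in Bob1KO libraries, a log2 difference of -0.28 (SE 0.153, adjusted P = 0.942 by limma), with overlapping groups. *Glrx* was at 48.0, 18.2 and 16.2 FPKM in WT and 15.04, 13.8 and 20.1 FPKM in Bob1KO libraries, a log2 difference of -0.56 (SE 0.392, adjusted P = 0.942 by limma). That value rests on WT replicate 1, without which it was -0.09. The fragments implied there, 266, are fewer than the 395 and 391 of the other WT libraries, so the FPKM of *Glrx* in that library does not follow them and is doubtful. In Bob1KO libraries the fragments were 402, 382 and 98. The 98 of replicate 3 are the fewest of the 6 libraries, at the highest FPKM of the Bob1KO libraries. The value of -0.09 is therefore doubtful as well. *Glrx2* ran from 6.99 to 8.68 FPKM in 4 libraries but stood at 38.1 FPKM in WT replicate 2 and 42.2 FPKM in Bob1KO replicate 1, and its interval, -1.93 to 1.92, is the widest of the tested members. The fragments implied for *Glrx2* in those 2 libraries, 72 and 266, are the fewest of the 6, so their high FPKM are doubtful. For *Glrx5*, a mitochondrial carrier of iron-sulfur clusters, the means were 22.4 ± 1.66 and 19.4 ± 1.23 FPKM, a log2 difference of -0.20 (SE 0.116).

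Glutathione synthesis and recycling had negative differences in all 4 genes from the libraries, from -0.19 to -0.02, and overlapping groups. By the authors' group FPKM *Gsr* was positive, at 0.0281. *Gsr*, the reductase that returns oxidized glutathione to its thiol form, was at 47.8, 38.1 and 47.2 FPKM in WT and 52.9, 37.3 and 41.0 FPKM in Bob1KO libraries, a log2 difference of -0.03 (SE 0.164, adjusted P = 0.993 by limma). *Gclm*, the modifier subunit of glutamate-cysteine ligase, was at 24.5, 25.5 and 33.3 FPKM in WT and 26.7, 24.6 and 30.4 FPKM in Bob1KO libraries, a log2 difference of -0.02 (SE 0.154, adjusted P = 0.996 by limma). *Gclc*, its catalytic subunit and the rate-limiting enzyme of synthesis, had means of 22.7 ± 2.65 and 20.1 ± 4.76 FPKM, and *Gss*, glutathione synthetase, of 10.3 ± 2.13 and 9.99 ± 1.63 FPKM. The intervals of these 4 genes run from -0.63 at the lowest to 0.42 at the highest. The fragments implied for *Gclc*, 861, 854 and 1616 in WT and 1149, 1109 and 1286 in Bob1KO libraries, do not follow its FPKM. In WT replicate 3 they are the most, at 19.8 FPKM, the lowest of the WT libraries. Those for *Gsr* were 1345, 1924 and 2641 in WT and 2703, 2400 and 1864 in Bob1KO libraries. No bound on the change should therefore be read from these intervals.

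The pentose phosphate enzymes had positive differences in all 4 genes from the libraries, with a median of 0.07 and a lowest value of 0.0009. By the authors' group FPKM, *Taldo1* and *Tkt* were negative, at -0.0568 and -0.0359, so no common direction should be read from them. *Taldo1*, transaldolase, was at 196, 208 and 228 FPKM in WT and 215, 215 and 202 FPKM in Bob1KO libraries, a log2 difference of 0.0009 (SE 0.104, adjusted P = 0.999 by limma). The fragments implied for *Taldo1* were 4468, 4883 and 5898 in WT but 1600, 1940 and 4276 in Bob1KO libraries. Its FPKM does not follow them, so this near-equal level is doubtful. *Tkt*, transketolase, was at 73.2, 85.3 and 62.9 FPKM in WT and 83.2, 58.9 and 99.8 FPKM in Bob1KO libraries, a log2 difference of 0.10 (SE 0.210, adjusted P = 0.971 by limma). The NADPH-producing *G6pdx* and *Pgd* had log2 differences of 0.18 (SE 0.161) and 0.03 (SE 0.121).

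The last pair of members are a selenoprotein of the endoplasmic reticulum and an enzyme of methionine repair. *Selk* (chromosome 14, 29968308 to 29975662), which takes part in calcium signals of immune cells, stood at 159, 152 and 164 FPKM in WT and 150, 150 and 123 FPKM in Bob1KO libraries. The groups did not overlap, but 2 of the 3 Bob1KO libraries lay just under the lowest WT library, and the log2 difference was -0.17 (SE 0.117), with an unadjusted P of 0.184 and an adjusted P of 0.942 by limma. The fragments implied for *Selk*, 2957, 2931 and 1865 in WT and 2918, 3680 and 2082 in Bob1KO libraries, overlapped and did not follow the FPKM. *Msrb1*, a selenoprotein that reduces methionine sulfoxide, was at 6.55, 7.72 and 8.18 FPKM in WT and 15.02, 7.38 and 7.85 FPKM in Bob1KO libraries, a log2 difference of 0.33 (SE 0.263, adjusted P = 0.942 by limma). The difference rests on Bob1KO replicate 1, the library with the most neutrophil and monocyte markers, and was 0.03 without it. The part of those cells in the level of *Msrb1* was not tested.

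The median level of the members differed more between libraries of 1 group than between the groups. Among the 42 tested members, Bob1KO replicate 1 held the highest of the 6 values in 17 and WT replicate 3 in 14, while Bob1KO replicate 2 held the lowest in 13 and WT replicate 1 in 10. The median deviation of the members from their own mean on the log2 scale was -0.02, -0.07 and 0.11 in WT and 0.15, -0.06 and -0.08 in Bob1KO libraries. Over all tested genes it ran from -0.06 to 0.05, so the 2 highest libraries stand further from 0 in the members than over all genes. The same 2 libraries had the least FPKM in rows that Cufflinks had numbered and not named, 94.17% in WT replicate 3 and 94.07% in Bob1KO replicate 1 against 95.65% to 95.92% in the others, and the part of this in the members' levels was not tested. Without Bob1KO replicate 1, 6 members were at an unadjusted P below 0.05, *Gstm1* and *Txnip* higher and *Prdx4*, *Txn1*, *Txnrd1* and *Mgst2* lower, and none passed the adjusted P by limma. This was 14.3% of the members, beside 4.99% of the genes tested without that library, and the median of the members was -0.05. Without Bob1KO replicate 2, the only member at that threshold was *Gstm1*, 2.38% of the members beside 5.78% of the genes tested, and the median was 0.04.

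**Figure D4:**
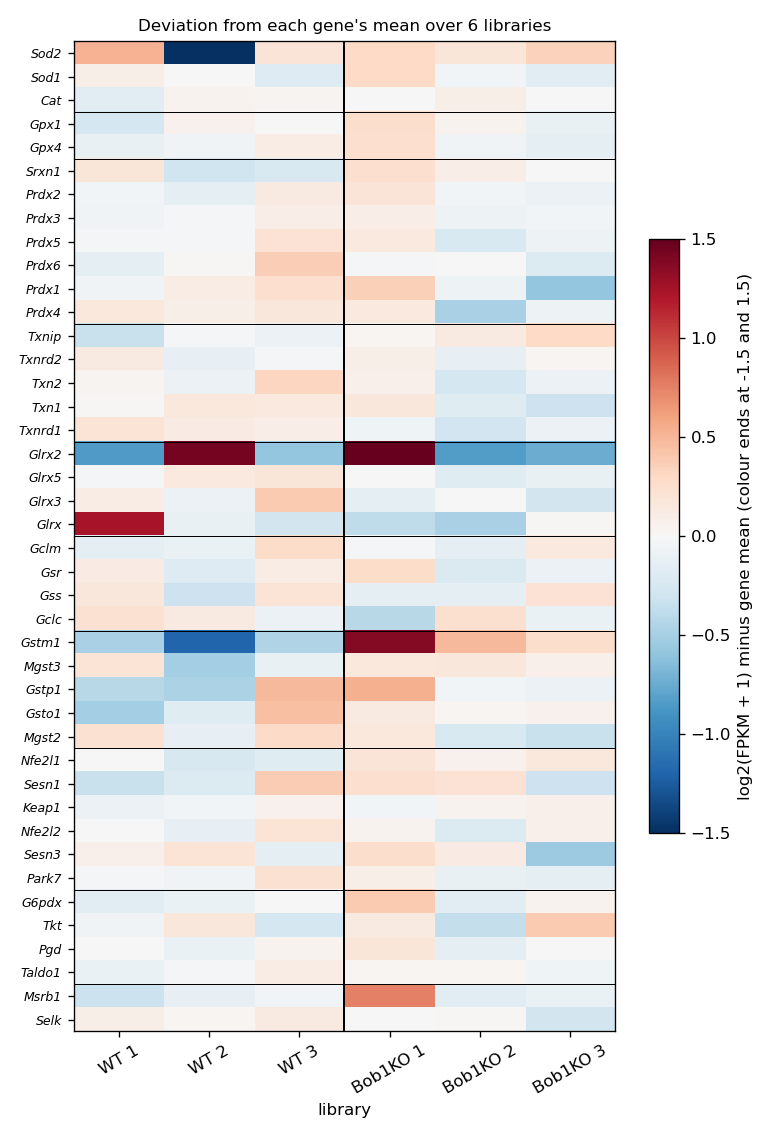
Deviation of each tested member in each library from its mean over the 6 libraries on log2(FPKM + 1), red above and blue below, with lines between roles. The columns of WT replicate 3 and Bob1KO replicate 1 hold most red cells, and single dark cells mark *Sod2* in WT replicate 2, *Glrx* in WT replicate 1 and *Glrx2* in WT replicate 2 and Bob1KO replicate 1.

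A second source is the group FPKM, which the authors made with an assembly common to all libraries. Its log2 ratio lay within 0.2 of the log2 difference from the libraries in 38 of the 42 members. For *Gstm1* the log2 ratio of these group values was 1.51, and for *Txnrd1* it was -0.29, so both stood in the same direction and at like size in both sources. The 4 members beyond 0.2 were *Sod2*, *Glrx*, *Gstp1* and *Sesn1*, whose log2 ratios of group FPKM were -0.18, -0.23, -0.04 and -0.17 against 0.56, -0.56, 0.26 and 0.11 from the libraries. In *Sod2*, *Gstp1* and *Sesn1* the direction differs between the assemblies, so none should be read from them.

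**Figure D5:**
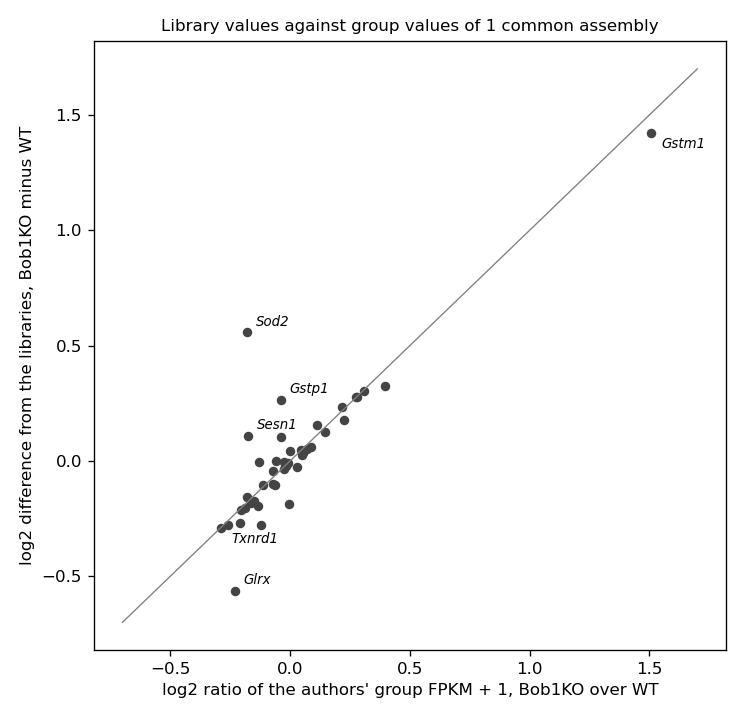
Log2 difference between Bob1KO and WT from the library values against the log2 ratio of the authors' group FPKM, both with 1 FPKM added, for the 42 tested members, with a line where both are equal. Most members lie along the line, *Gstm1* lies far out on it, and *Sod2*, *Glrx*, *Gstp1* and *Sesn1* lie off it.

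The 9 members with an antioxidant response element in the window had no common direction. Their log2 differences ran from -0.29 for *Txnrd1* to 0.23 for *Srxn1*, 4 positive and 5 negative, with a median of -0.02. *Gstm1*, the member with the largest difference, has no match of these letters in its windows.

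Other genes of the same pathways gave a like picture. Of 113 such genes in 5 lists, 107 were found and 87 tested, none passed the adjusted P by limma, 42 differences were positive and 45 negative, and the median was -0.02. At an unadjusted P below 0.05 there was 1 gene on each side, 1.15% of those tested, beside 3.15% of all genes higher and 2.12% lower. In 4 genes every Bob1KO library lay above every WT library and in 3 below, 4.60% and 3.45% of those tested, beside 5.83% and 4.86% of all genes. *Hagh*, glyoxalase II, which frees glutathione at the end of methylglyoxal removal, stood at 25.8, 20.6 and 30.5 FPKM in WT and 17.4, 19.1 and 17.8 FPKM in Bob1KO libraries, a log2 difference of -0.46 (SE 0.158, unadjusted P = 0.0213, adjusted P = 0.926 by limma). *Abcc1*, an exporter of glutathione conjugates, was at 7.53, 6.62 and 7.59 FPKM in WT and 9.07, 9.59 and 9.60 FPKM in Bob1KO libraries, a log2 difference of 0.34 (SE 0.128, unadjusted P = 0.0325, adjusted P = 0.926 by limma). Neither gene had overlapping groups.

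By list, 11 of 18 tested glutathione enzymes, 14 of 32 thioredoxin fold and selenoprotein genes, 5 of 10 NADPH-producing enzymes, 9 of 20 further genes of the Nrf2 pathway and 3 of 7 NADPH oxidase subunits had positive differences. The genes with the lowest P of the lists without one at the unadjusted threshold were *Pdia4* at a log2 difference of 0.20, *Me2* at -0.26 and *Cyba* at -0.18, with an adjusted P of 0.942 by limma in each. *Mgst1*, a transferase outside the 45 members, was at 1.87, 1.39 and 2.14 FPKM in WT and 12.4, 0.183 and 5.03 FPKM in Bob1KO libraries, where the neutrophil and monocyte markers summed to 5201, 98.6 and 1672 FPKM. The part of those cells in its level was not tested.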

How the data were processed

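RNA of 6 libraries of sorted splenic Tfh cells, 3 WT and 3 Bob1KO, was amplified with SMART-Seq v4 and sequenced. The authors trimmed reads with cutadapt 1.2.1 and PRINSEQ, used TopHat2 2.0.13 for alignment to GRCm38 (mm10), and made the deposited FPKM with Cufflinks 2.2.1, per the labels' processing notes and the study's methods. The sources used here do not give the version of the annotation. A deposited table compares the groups, with a group FPKM from 1 common assembly, a fold change, and p- and q-values with their test statistic, of which only the group FPKM were used.

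Transcripts had been assembled in each library alone, so rows were assigned by position to the gene (GENCODE M21 spans of the RefSeq transcripts in the authors' table) with which they shared at least 0.5 of the joint length. A row covering at least 0.95 of a gene still without one was assigned next, and named rows kept their names. This assigned 90.85% to 92.04% of the FPKM of a library. Of the members, 42 had a row of their own in the authors' comparison, *Msrb1* stood as *Sepx1*, *Gstp1* shared a row with *Gstp2* and *BC021614*, and *Tkt* with *Mir3076*.

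On log2(FPKM + 1), limma 3.58.1 (R 4.3.3) fitted a model of group alone, with a variance trend, to the 10259 genes whose mean FPKM was 1 or more, and P-values were adjusted over all of them by Benjamini-Hochberg. Fold changes on this scale understate those of low genes. Tests are two-sided, and the script was tested on simulated data. P-values measure the spread between libraries, which the study's methods place in separate experiments and the labels do not. Depth was read as fragments implied by the deposited confidence limits, which cover counting error only. Whole fragments came out for 54.5% to 63.1% of named rows within 0.05, too few for a test on counts. Tables and figures were made with Python 3.11.15, pandas 2.3.3 and matplotlib 3.10.9.

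Members with an unadjusted P below 0.05 or with groups that do not overlap, and the 2 most abundant of each role, are given in every library. From each list of other genes of the pathways, up to 3 below that P or the 1 with the lowest P are named. *Gstm4*, *Mgst1* and *Prf1* were named after their values were seen. The members and lists were chosen with earlier results of these data known. Alternatives were 2 other pseudocounts, 2 other filters, 2 scalings, 2 variance models, 2 matching rules, a replicate block, libraries left out and the authors' group FPKM. No table of proteins was used here.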

Additional observations from a re-analysis of the deposited data

How the results depend on the processing

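No member passed the adjusted P under any of the 18 alternatives, where the lowest adjusted P of a member by limma was 0.413, for *Gstm1* with the replicate block. Over all genes, where 2 passed, 3 passed with no filter on low values, with quantile normalization or with median ratio scaling. Only 1 passed with a pseudocount of 0.1, with a filter of 5 FPKM, with the replicate block or without both replicate 2 libraries. With 1 library left out, 0 to 7 passed. The 0 came without WT replicate 2 and the 7 without WT replicate 1. Members at an unadjusted P below 0.05, 3 in all, numbered 1 to 6 with 1 library left out, 2.38% to 14.3% of the members, beside 3.92% to 6.05% of all genes tested. *Gstm1* was among them in all 18, *Txnrd1* in 14 and *Nfe2l1* in 9, and *Txnip* joined them in 6. The median of the members ran from -0.054 to 0.0437 with 1 library left out.

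Of the 24 members given in every library, those that follow changed direction. With quantile normalization *Gsr* was at 0.0068 and *Gclm* at 0.0009 on the log2 scale. Without both replicate 2 libraries *Sod2* was at -0.0307 and *Taldo1* at -0.0210. By the authors' group FPKM *Sod2* was at -0.179, *Gsr* at 0.0281, *Gstp1* at -0.0369, *Taldo1* at -0.0568 and *Tkt* at -0.0359. With 1 library left out, the ranges that cross 0 were -0.0220 to 0.0861 for *Cat*, -0.0813 to 0.119 for *Gpx4*, -0.170 to 0.0766 for *Gsr*, -0.100 to 0.113 for *Gclm*, -0.0484 to 0.0572 for *Taldo1*, -0.0781 to 0.956 for *Sod2*, -0.0635 to 0.312 for *Tkt* and -0.425 to 0.0447 for *Prdx1*. The cause was not tested.

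Replicate numbers were not taken as pairs. The deviations of WT and Bob1KO libraries with the same number correlated at 0.099, 0.136 and 0.097, each library best with its own number, as a hint from the data and not the design. With the replicate block, *Gstm1*, *Txnip* and *Txnrd1* were at an unadjusted P below 0.05, the block changed no call of a member at the adjusted P, and the median stayed at -0.0033. The main limits are 3 libraries a group, levels made on separate assemblies, and low depth for *Mgst3*, *Gpx7*, *Gpx8* and *Nqo1*, with 0 to 26.2 fragments implied.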
